A study of Mus musculus with 12 samples.

Results

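Wls, the transcript with the largest fitted rise after deletion of Pdpk1 in cytotoxic T lymphocytes (CTL), was examined here beside 6 further genes of the Wnt pathway, Porcn, Ctnnb1, Axin2, Gsk3b, Lrp6 and Apc. Wls was selected on its log2 signal on these same arrays, for its difference between Pdpk1-null and Cre control CTL and the contrast with an Akt inhibitor. Its values in both comparisons are therefore given as a description with no test. The other 6 genes were chosen for their place in the pathway, with earlier results of these data already known. Their counts and p-values are therefore not a fully independent test. The 7 genes, of 18193 named on the array, are read by 22 of 45037 probe sets, which are groups of short probes against one transcript. Wls has 4 probe sets (also listed under its older name Gpr177), Porcn 1, Ctnnb1 3, Axin2 2, Gsk3b 6, Lrp6 2 and Apc 4.

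All CTL were grown from spleen cells of C57BL/6 mice, activated for 48 h with 0.5 µg/ml of the CD3 antibody 2C11 and cultured for 5 days in 20 ng/ml IL-2. Cre control CTL came from C57BL/6GT(ROSA)26tm9(creEsr1)Arte mice (TamoxCre), which have wild-type Pdpk1 and express, from the ROSA locus, a Cre that tamoxifen turns on, and Pdpk1-null CTL came from PDK1fl/fl TamoxCre mice. Both of these groups received 0.6 µM 4-hydroxytamoxifen (4OHT) for the last 72 h, so that Cre was active in both. The groups come from different mouse lines, and no floxed CTL without 4OHT were on the arrays. An effect of the deletion and an inherited difference between the lines therefore cannot be told apart. The words after deletion name this comparison throughout. For the other experiment the CTL cultures of wild-type C57/B6 mice were divided, and one portion of each received 1 µM AktI-1/2 (AktI), an allosteric inhibitor of Akt, for the last 48 h while the other stayed in IL-2 alone. There were 3 arrays per group and 12 in all, from 3 mice per genotype in the first experiment and 3 mice in the second. Mice were matched for age and sex, and their age was not given in the sources used here.

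PDK1, the kinase encoded by Pdpk1, switches on Akt and several related kinases, so the paired experiments ask which transcripts depend on PDK1 and which of these also depend on Akt. The paper reported the deletion in CTL made this way from immunoblots of PDK1, and the arrays could not check it by Pdpk1 itself. Its probe sets 1415729_at and 1416501_at differed by 0.05 and -0.04 on the log2 scale between Pdpk1-null and Cre control CTL, and which exons they read is not known here. Markers of T cells and CTL were present as labelled, with 8 of 8 measured genes of that list, among them Cd3d, Cd8a and Gzmb, above background on the arrays of both experiments. Array medians on the log2 scale were 4.60 to 4.62 in the first experiment and 5.10 to 5.14 in the second, so effects and not levels are compared between the experiments. Background was taken as the signal of probe sets for olfactory and vomeronasal receptors, log2 4.45 in the first experiment and 4.99 in the second.

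Wnt proteins are secreted, lipid-modified signals. Porcn adds the lipid in the endoplasmic reticulum, and the membrane protein encoded by Wls carries the modified Wnt to the surface of the cell that makes it and is then recycled. In the receiving cell, Wnt binds a Frizzled receptor together with the coreceptor encoded by Lrp6. Without Wnt, a complex that contains the products of Apc, Axin2 and Gsk3b marks beta-catenin, the product of Ctnnb1, for breakdown. With Wnt, beta-catenin accumulates and acts in the nucleus with factors of the TCF and LEF family, and Axin2 is also one of its widely used target genes. In T cells this nuclear arm is best known for its part in thymocyte development and in the formation of memory cells.

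The sequence just before the start of Wls is shown because it is the stretch at which transcription of the gene begins. It is taken from RefSeq on the GRCm38.p6 build, chr3:159839400-159839649 on the plus strand, 250 bases that end where the annotated transcript starts. The capitals mark an unbroken run of 31 purines (A and G) that stops 3 bases before the start.

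Wls promoter: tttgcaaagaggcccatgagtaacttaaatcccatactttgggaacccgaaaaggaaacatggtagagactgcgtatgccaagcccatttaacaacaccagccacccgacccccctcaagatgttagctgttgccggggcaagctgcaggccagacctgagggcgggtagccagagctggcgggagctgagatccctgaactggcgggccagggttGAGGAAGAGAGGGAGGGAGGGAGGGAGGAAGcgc

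The run was picked out after the sequence had been seen, and 2.86% of 32851 RefSeq promoters of the same length hold a run of at least 20 purines on the strand of the gene. Motifs were searched on both strands over these 250 bases and the 50 that follow. The TCF/LEF letters CTTTGAT occur in 3.73% of all 32851 promoters, CTTTGAA in 5.14% and either of them in 8.65%, and the forkhead letters GTAAACA in 3.65%. None of the 3 was found in the window of Wls, in either of 2 windows of Ctnnb1, or in those of Axin2 and Gsk3b, which says only that these letters are not within these 300 bases.

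Wls was at background in Cre control CTL and was far above it in Pdpk1-null CTL on 3 of its 4 probe sets. On probe set 1437434_a_at the log2 signal was 3.72, 3.85 and 4.16 in Cre control replicates 1, 2 and 3 and 9.42, 10.16 and 10.45 in Pdpk1-null replicates 1, 2 and 3. On 1423824_at it was 3.50, 3.51 and 3.73 in Cre control and 9.18, 10.05 and 10.42 in Pdpk1-null CTL. On 1423825_at it was 3.40, 3.45 and 3.55 against 6.64, 7.69 and 7.82. Every Cre control array lay below background on these probe sets, every Pdpk1-null array lay above it, and the smallest gap between the groups was 3.09, 5.27 and 5.44 log2 units on 1423825_at, 1437434_a_at and 1423824_at. In bulk cultures a change in the share of cells that hold a transcript and a change in its amount per cell cannot be told apart.

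The mean difference, Pdpk1-null minus Cre control, was 6.30 (standard error 0.267, n = 3 per group) on 1423824_at, 6.10 (0.237) on 1437434_a_at and 3.92 (0.267) on 1423825_at. These were the 3 largest fitted rises among all 45037 probe sets. Since the control signals are below background, neither these sizes nor their order is exact, and the sizes are better read as bounds. Against the background level, Wls was at least 43.4-fold higher on 1423824_at, at least 47.4-fold on 1437434_a_at and at least 7.66-fold on 1423825_at. The rise did not have the same height in each mouse. Pdpk1-null replicate 1 was the lowest of its group on all 3 probe sets, by 0.74 to 1.05 log2 units below replicate 2, while replicates 2 and 3 lay 0.14 to 0.37 apart.

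The 4th probe set annotated to Wls, 1458319_at, did not share this pattern. Its log2 signal was 2.62, 2.52 and 2.81 in Cre control and 2.77, 2.47 and 2.89 in Pdpk1-null CTL, with groups that overlap and a difference of 0.06. It was below background in all 4 groups, so it gives no measured level of Wls, and which part of the transcript it reads is not known here.

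**Figure D1:**
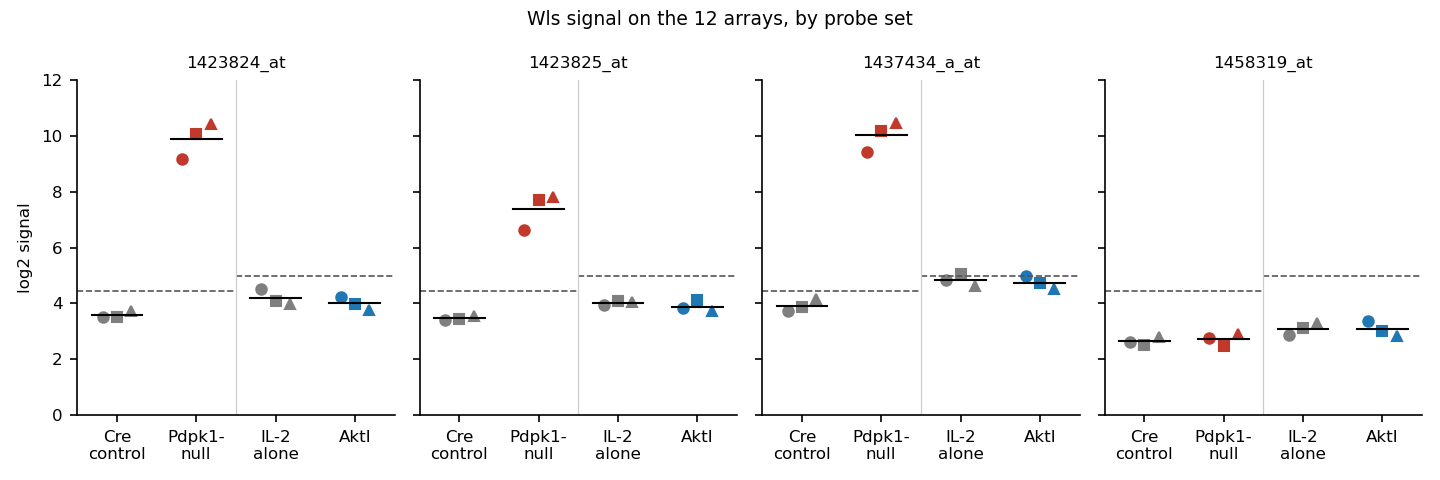
Log2 signal of Wls (y axis) on each of the 12 arrays, by group (x axis), for its 4 probe sets. Circles, squares and triangles are replicates 1, 2 and 3, black lines are group means (n = 3), and dashed lines are the background level of each experiment (4.45 and 4.99). In 3 panels the Pdpk1-null arrays sit between 6.64 and 10.45 and the Cre control arrays between 3.40 and 4.16; the panel of 1458319_at is below background throughout.

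With AktI, Wls stayed at or near background. Since this contrast also served to select Wls, its values here are a description with no test. For the other genes a call asked for an adjusted p under 0.05 in limma and at least a 1.5-fold change. On 1437434_a_at the log2 signal was 4.84, 5.04 and 4.62 in IL-2 alone and 4.97, 4.74 and 4.53 with AktI in the CTL of mice 1, 2 and 3, so that 1 mouse was higher with the inhibitor and 2 were lower (0.13, -0.30 and -0.10). On 1423824_at the signals were 4.51, 4.08 and 3.97 against 4.23, 3.97 and 3.78, and on 1423825_at 3.95, 4.08 and 4.03 against 3.83, 4.10 and 3.72. The groups overlap on all 4 probe sets. The differences, AktI minus IL-2 alone, were -0.09, -0.19 and -0.14 in the same order, and -0.01 on 1458319_at. Because the levels are at background, a change among cells with very little Wls was not detectable on these arrays. Across all probe sets 1.94% were called with AktI.

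The other 6 genes showed no change that passed when Wls rose. None of their 18 probe sets was called after Pdpk1 deletion in limma, where 1.02% of all probe sets were called, and 2 of the 18 had an unadjusted p under 0.05, against 15.2% of all probe sets. Their differences ran from -0.28 to 0.14 with a median of -0.04, beside a median of -0.01 over all probe sets. The lowest adjusted p was 0.12, and all 18 of the 95% intervals, which together span -0.46 to 0.53, lie within a 1.5-fold change. The groups did not overlap on 3 of the 18 probe sets, against 21.3% of all. Among the 18, 3 were below background in both groups, so for those only a change that lifted them above it could have been seen.

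On the secretion side, Porcn, the acyltransferase that acts on Wnt before Wls does, was below background in every group. Its log2 signal was 4.20, 4.09 and 3.99 in Cre control and 4.20, 4.15 and 4.03 in Pdpk1-null CTL, a difference of 0.03 (adjusted p = 0.918, limma). With AktI its difference was -0.09 (adjusted p = 0.72, limma). Wls therefore crossed the background level in Pdpk1-null CTL and Porcn did not.

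Lrp6, the coreceptor, had the largest difference among the 18 probe sets after deletion, and it missed the threshold. On 1451022_at the log2 signal was 6.51, 6.55 and 6.62 in Cre control and 6.28, 6.37 and 6.17 in Pdpk1-null CTL, groups that do not overlap. The difference was -0.28 (95% confidence interval -0.46 to -0.11), with a limma adjusted p of 0.12. On its second probe set, 1428500_at, the signal was 7.20, 7.28 and 7.36 against 7.16, 7.11 and 7.11, a difference of -0.15 (adjusted p = 0.363, limma), again with no overlap. With AktI these differences were -0.13 and -0.01, and both pairs of groups overlap.

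In the destruction complex, Gsk3b, the kinase that phosphorylates beta-catenin, had 1 of 6 probe sets on which the groups did not overlap after deletion. On 1451020_at the log2 signal was 7.71, 7.67 and 7.64 in Cre control and 7.41, 7.59 and 7.43 in Pdpk1-null CTL, a difference of -0.20 (adjusted p = 0.257, limma). Its brightest probe set, 1454958_at, read 8.61, 8.42 and 8.55 against 8.46, 8.56 and 8.42, a difference of -0.04. The probe sets of Gsk3b thus differed among themselves, from -0.20 to 0.14, by less than 1.5-fold. Apc, the scaffold of the complex, read on its brightest probe set 1420956_at 7.68, 7.69 and 7.67 in Cre control and 7.75, 7.65 and 7.68 in Pdpk1-null CTL. Its other 3 probe sets had differences of -0.21, -0.16 and -0.04, and the first of these, 1420957_at, was below background.

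Ctnnb1, which encodes beta-catenin, was the member with the closest values in Cre control and Pdpk1-null CTL. On 1420811_a_at the log2 signal was 11.30, 11.31 and 11.22 in Cre control and 11.30, 11.16 and 11.37 in Pdpk1-null CTL. The 3 probe sets of Ctnnb1 had differences of 0.00, 0.04 and 0.00, and the 95% intervals reached at most 0.19 in either direction. Axin2, the target gene among the members, read 5.41, 5.14 and 5.17 in Cre control and 5.46, 5.17 and 5.40 in Pdpk1-null CTL on 1436845_at. That difference was 0.10 (95% confidence interval -0.14 to 0.34, limma adjusted p = 0.727), and the groups overlap. The other Axin2 probe set, 1421341_at, was below background in both experiments.

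**Figure D2:**
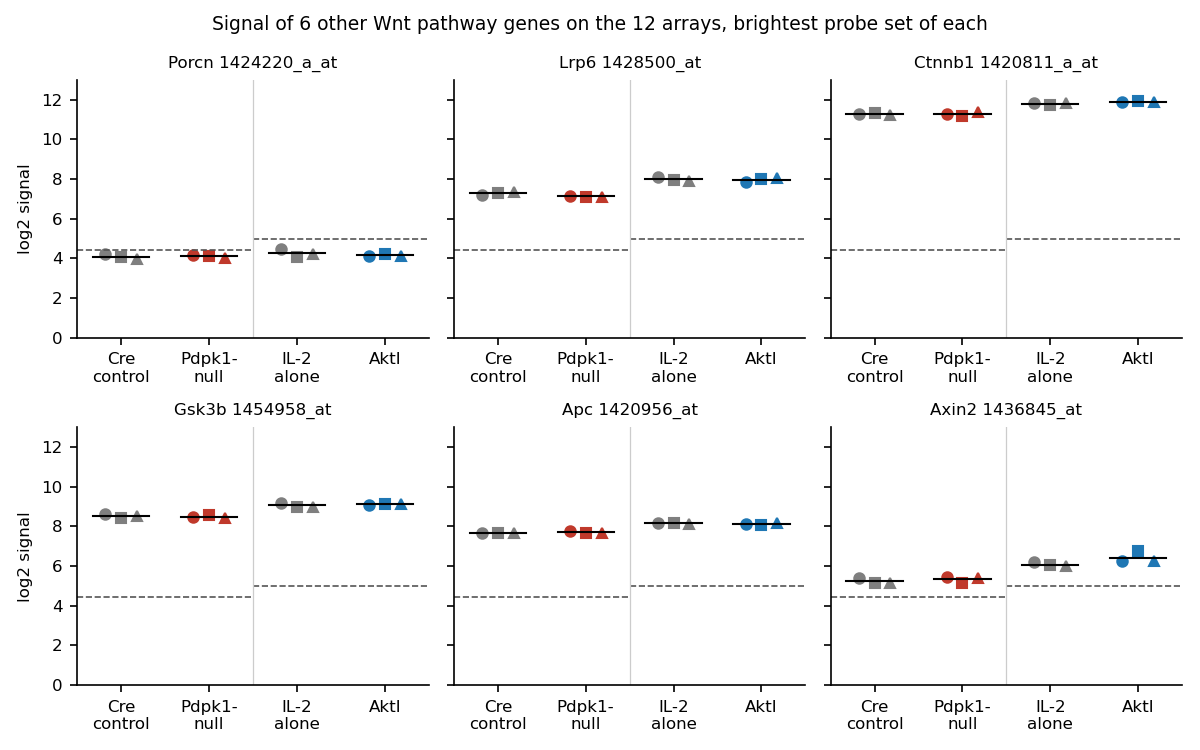
Log2 signal (y axis) of the brightest probe set of Porcn, Lrp6, Ctnnb1, Gsk3b, Apc and Axin2 on each of the 12 arrays, by group (x axis). Circles, squares and triangles are replicates 1, 2 and 3, black lines are group means (n = 3), and dashed lines mark background (4.45 and 4.99). Cre control and Pdpk1-null arrays lie side by side in each panel, and Porcn is below background throughout.

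AktI likewise left all 18 probe sets uncalled in limma, and 3 of 18 had an unadjusted p under 0.05, against 17.7% of all probe sets. The differences ran from -0.16 to 0.35 with a median of 0.05, the lowest adjusted p was 0.251, and 17 of 18 intervals lie within a 1.5-fold change. The groups did not overlap on 3 of 18 probe sets, against 23.5% of all. In this experiment 5 of the 18 were below background in both groups, so for those only a change that lifted them above it could have been seen. The exception among the intervals was Axin2. On 1436845_at its log2 signal was 6.19, 6.05 and 5.99 in IL-2 alone and 6.24, 6.78 and 6.24 with AktI, so the inhibitor arrays were all higher, by 0.06, 0.73 and 0.25 in mice 1, 2 and 3. The difference was 0.35 (95% confidence interval 0.02 to 0.67), with a limma adjusted p of 0.251, and most of it came from mouse 2.

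The Apc probe sets 1435543_at and 1450056_at had differences of 0.21 and 0.17 with AktI (adjusted p = 0.258 and 0.259, limma). Ctnnb1 had 0.09, 0.10 and 0.10 on its 3 probe sets, with all 3 inhibitor arrays above all 3 untreated ones on 1420811_a_at (11.90, 11.93 and 11.89 against 11.84, 11.76 and 11.84). None of these passed. For the 18 probe sets, the effect of deletion minus the effect of AktI was also called in none, where 0.395% of all probe sets were called. Of these differences 2 of 18 had an unadjusted p under 0.05, against 10.3% of all.

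**Figure D3:**
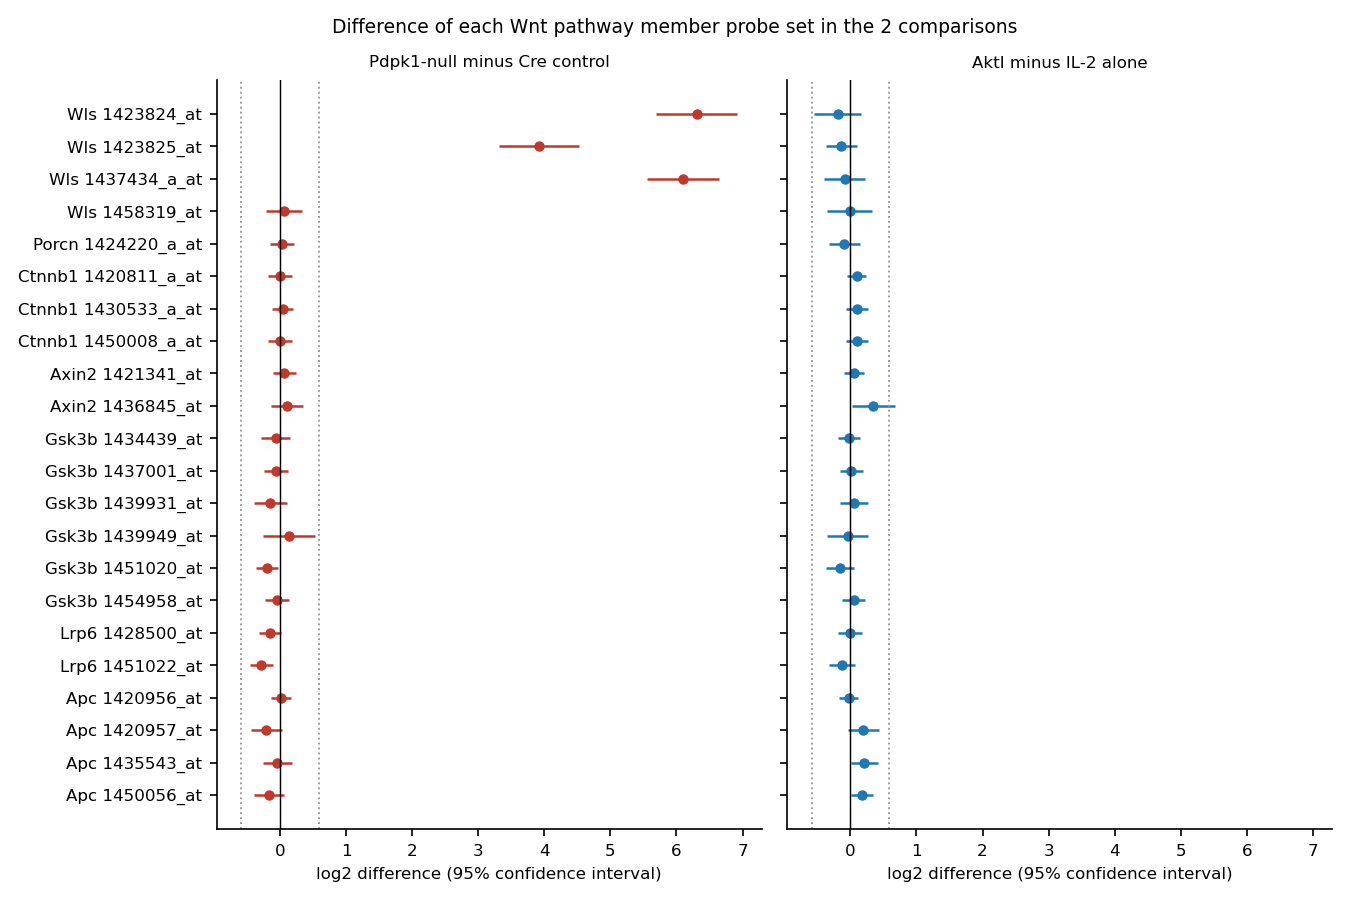
Log2 difference (x axis) of each of the 22 member probe sets (y axis) for Pdpk1-null minus Cre control (left) and AktI minus IL-2 alone (right). Points are differences of group means (n = 3 per group), bars are 95% confidence intervals, and dotted lines mark a 1.5-fold change. Wls was selected on these data, so its bars are a description. The points of 1423824_at, 1423825_at and 1437434_a_at stand at 6.30, 3.92 and 6.10 on the left, and all other points lie between -0.28 and 0.35.

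The wider pathway was read from 7 lists of Wnt genes, which hold 125 genes besides the members. Of these, 121 were measured by a probe set that names the gene alone and 4 were not analysed here. Each gene was represented by its brightest such probe set. After Pdpk1 deletion 2 of 121 genes were called, both lower (1.65%, against 1.36% of all genes called and 0.357% called lower), and 13 had an unadjusted p under 0.05 (10.7%, against 17.3%). The median difference was -0.01, the same as over all genes. With AktI 1 of 121 was called, as higher (0.826%, against 2.53% of all genes called and 1.51% called higher), and 27 had an unadjusted p under 0.05 (22.3%, against 20.3%), with a median of -0.01 beside -0.02 over all genes. The effects of deletion and AktI differed for 2 of the 121 genes, against 0.522% of all genes. Mtm1, counted after deletion and in the difference of effects, was put on its list after its fall in these data had been seen. Those counts are therefore not independent of the data. With counts of 1 and 2 genes these shares give no result about the pathway as a whole.

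Among 14 genes of Wnt secretion and of the recycling of Wls, Porcn included, Mtm1 alone was called. Mtm1 encodes myotubularin, a phosphatase that removes a phosphate from phosphoinositides of endosomes, and worm proteins of the same family act in the recycling of the Wls protein. It had been seen to fall in these data before it was put on the list, so its count there is not independent. Its p-values after deletion and for the difference of effects are likewise a description and not an independent test. On 1434278_at the log2 signal was 9.76, 9.75 and 9.67 in Cre control and 8.39, 8.45 and 8.47 in Pdpk1-null CTL, a 2.44-fold fall (log2 difference -1.29, standard error 0.067, limma adjusted p = 0.000122). On 1454904_at it was 8.79, 8.93 and 8.77 against 7.26, 6.99 and 7.24, a 3.18-fold fall (limma adjusted p = 0.000202). The 3rd probe set, 1416934_at, was below background in both of these groups.

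Mtm1 was not called with AktI. The signal was 9.54, 9.73 and 9.67 in IL-2 alone and 9.64, 9.65 and 9.63 with the inhibitor, and the effects differed by -1.28 (limma adjusted p = 1.51e-05). No other secretion gene was called in either comparison. The retromer subunits Vps26a, Vps26b, Vps29 and Vps35, which return Wls from endosomes, had differences of -0.08, -0.02, -0.04 and 0.10 after deletion, none of which passed. The sorting nexins Snx3 and Snx12 had -0.03 and 0.08, and the cargo receptors Tmed4, Tmed5 and Tmed10, members of the family that helps Wnt leave the endoplasmic reticulum, had -0.02, -0.06 and -0.01.

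None of 19 Wnt ligands was called in either comparison, with 8 of 19 above background in the first experiment and 6 in the second. Of all genes 1.36% were called after deletion and 2.53% with AktI. At these shares the lack of a call, on this list or on those below, gives no result about a list. The ligand with the largest difference was Wnt10b. Its log2 signal was 5.71, 5.84 and 5.82 in Cre control and 5.25, 5.36 and 5.44 in Pdpk1-null CTL, lower on every array, with a difference of -0.44 (limma adjusted p = 0.0329) that stayed under 1.5-fold. With AktI it was -0.10 (adjusted p = 0.746, limma). Wnt2b, the ligand with the largest difference with AktI, was below background, at -0.24.

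No receptor or coreceptor of 19 was called in either comparison. Lgr4, a receptor for R-spondins, had the largest difference after deletion, -0.52 (adjusted p = 0.413, limma), in groups below background (3.81, 4.92 and 3.79 against 3.61, 3.72 and 3.64), where Cre control replicate 2 alone was above it. Fzd10, a Frizzled receptor, had -0.28 (adjusted p = 0.133, limma). Of 20 measured modulators outside the cell or in its membrane none was called. Sfrp2, a secreted protein that binds Wnt, read 4.97, 4.97 and 4.89 in IL-2 alone and 5.53, 5.23 and 5.55 with AktI, a difference of 0.49 (limma adjusted p = 0.0209), higher on every array and under 1.5-fold. Dkk4, an inhibitor of Lrp6, was below background in all groups.

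Of 26 measured genes of Dishevelled and the destruction complex, members included, none was called. Dvl1, one of the Dishevelled proteins that pass the signal on from Frizzled, read 7.26, 7.31 and 7.31 in IL-2 alone and 7.67, 7.77 and 7.70 with AktI. The difference was 0.42 (limma adjusted p = 0.00679), under 1.5-fold, and after Pdpk1 deletion it was -0.13 (0.512). These values are from the brightest probe set of Dvl1. Its other probe set, also above background, had 0.14 with AktI (adjusted p = 0.388, limma) and -0.22 after deletion (adjusted p = 0.401, limma). The low adjusted p with AktI was therefore seen on the brightest probe set alone. Frat2, which binds Gsk3b and keeps it from the destruction complex, read 5.11, 5.47 and 4.80 against 5.80, 5.87 and 5.64 with AktI. Its difference of 0.64 missed the threshold (limma adjusted p = 0.0501) and passed with each mouse as a block (0.0191). Under quantile normalization it did not pass (limma adjusted p = 0.0631). Without single arrays the limma adjusted p was 0.0119 to 0.159, and 5 of these fits did not pass.

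Among 20 measured nuclear partners of beta-catenin, Ctbp2 was called after deletion and Lef1 with AktI, each by its brightest probe set. A probe set of Tle1 other than its brightest was also called with AktI. Ctbp2, a corepressor, read 5.83, 6.17 and 5.94 in Cre control and 5.34, 5.29 and 5.39 in Pdpk1-null CTL on 1422887_a_at. This was a 1.56-fold fall (log2 difference -0.64, limma adjusted p = 0.0186), and the call was lost without Cre control replicate 2 or 3 or Pdpk1-null replicate 1 or 3, with adjusted p up to 0.0711. Its second probe set, 1434705_at, had -0.48 (adjusted p = 0.144, limma). With AktI Ctbp2 had -0.04, and the effects differed by -0.60 (limma adjusted p = 0.0431, and 0.0943 with the replicate block). That call was lost in 11 of 12 fits that each left out 1 array, with adjusted p up to 0.13.

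Lef1, a transcription factor that carries beta-catenin to DNA, rose with AktI on both of its probe sets. On 1454734_at the log2 signal was 9.27, 9.22 and 9.01 in IL-2 alone and 10.09, 10.18 and 9.93 with AktI, a 1.87-fold rise (log2 difference 0.90, standard error 0.094, limma adjusted p = 0.00126). On 1421299_a_at it was 8.45, 8.44 and 8.34 against 9.38, 9.39 and 9.19 (log2 difference 0.91, limma adjusted p = 0.000499). After Pdpk1 deletion Lef1 had 0.45 on 1454734_at (8.81, 8.88 and 8.77 against 9.43, 9.02 and 9.36), with no overlap and an adjusted p of 0.0921 in limma, and 0.34 on 1421299_a_at, where the groups overlap. The effects of deletion and of AktI on Lef1 differed by -0.45, which did not pass (limma adjusted p = 0.287). Lef1 is also one of 16 measured genes that are widely used as targets of beta-catenin. No other gene of that list was called by its brightest probe set in either comparison, though another probe set of Id2 was called with AktI. The medians of the list were 0.03 after deletion and -0.01 with AktI.

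A further 8 pathway genes had an adjusted p under 0.05 with AktI and a change under 1.5-fold. Besides Dvl1 and Sfrp2 they were Myc (0.54), Ep300 (0.37), Ctbp1 (0.33) and Siah1a (0.33), which were higher, and Fosl1 (-0.54) and Id2 (-0.39), which were lower. The last 6 are named after their values had been seen. Myc drives cell growth and Fosl1 is a component of the AP-1 factor, and both are among the targets, where they moved in opposite directions.

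**Figure D4:**
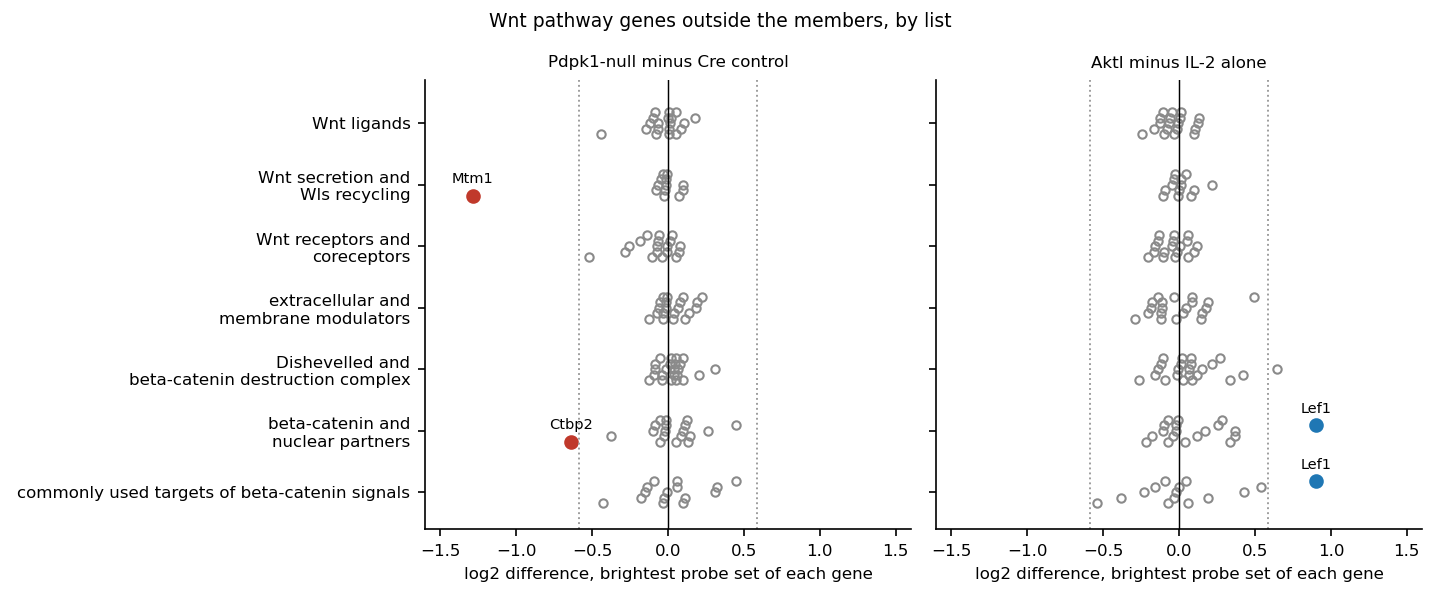
Log2 difference (x axis) of the 121 measured Wnt pathway genes outside the members, each by its brightest probe set, in 7 lists (y axis) for Pdpk1-null minus Cre control (left) and AktI minus IL-2 alone (right). Filled and named points were called, open points were not, dotted lines mark a 1.5-fold change, and a gene on more than 1 list is drawn on each. Mtm1 (-1.29) and Ctbp2 (-0.64) are the called genes on the left and Lef1 (0.90) on the right.

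**Figure D5:**
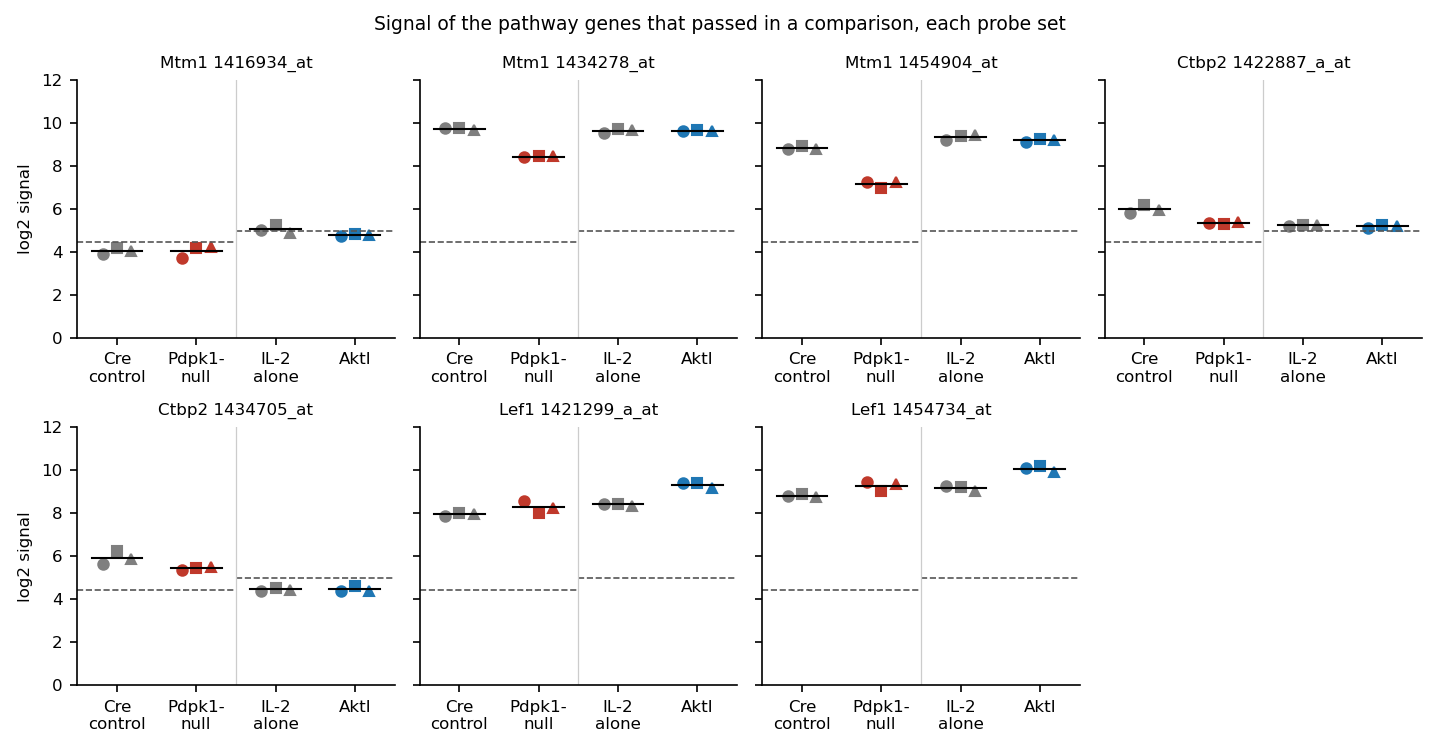
Log2 signal (y axis) of each probe set of Mtm1, Ctbp2 and Lef1 on each of the 12 arrays, by group (x axis). Circles, squares and triangles are replicates 1, 2 and 3, black lines are group means (n = 3), and dashed lines mark background (4.45 and 4.99). Both bright probe sets of Mtm1 fall in Pdpk1-null CTL, and both of Lef1 are higher with AktI.

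Wls lies near the end of chromosome 3 as its last measured gene, so its neighbours are the 5 measured genes before it, in order Rpe65, Depdc1a, Lrrc40, Srsf11 and Ankrd13c from the nearest. None of these 5 was called after deletion or with AktI, where 1.36% and 2.53% of all genes were called. The nearest, Rpe65, an enzyme of the visual cycle, was below background, and Lrrc40, Srsf11 and Ankrd13c had differences of -0.09, -0.03 and -0.02 after deletion. Depdc1a, the gene next to Rpe65 and one known from dividing cells, read 6.06, 6.38 and 5.88 in Cre control and 6.72, 7.40 and 6.87 in Pdpk1-null CTL. That difference of 0.89 missed the threshold (limma adjusted p = 0.0563). With AktI Depdc1a had -0.28, and the effects differed by 1.17 (limma adjusted p = 0.0471), a call that was lost under quantile normalization (0.0537) and in 10 of 12 fits that each left out 1 array (up to 0.13). Unlike Wls, Depdc1a was above background in every group.

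The genes with the pattern most like that of Wls were sought among 12389 genes above background, by the Pearson correlation of 1437434_a_at with each gene over the 12 arrays after subtraction of the control mean of each experiment. Because the Pdpk1-null arrays alone are far from 0 for Wls, this measure mostly finds genes that differ in that group, and the values are a description. The 5 closest were Tmem181a (r = 0.992), Ttc5 (0.990), Tmem242 (0.985), the T cell receptor segment Trbv13-2 (0.982) and Ccnb1ip1 (0.970). Their differences after deletion were 1.22, 0.47, 0.77, 0.52 and 2.29, all smaller than that of Wls, and between -0.03 and 0.03 with AktI. Tmem181a and Tmem242 lie on chromosome 17, as does Pdpk1, 115 and 122 measured genes from it, Ttc5 and Ccnb1ip1 are next to each other on chromosome 14, and Trbv13-2 is on chromosome 6. None lies on chromosome 3. The same correlation for the members was 0.19 for Porcn, -0.23 for Ctnnb1, -0.05 for Axin2, -0.33 for Gsk3b, -0.69 for Lrp6 and 0.21 for Apc.

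Markers of other cells were read beside Wls, which is widely expressed in stromal and epithelial cells. None of 6 stromal markers and none of 7 epithelial and endothelial markers was called in either comparison. Of all genes 1.36% were called after deletion and 2.53% with AktI. With so few genes per list, the lack of a call gives no result about any of these cell types. The summed signal of the stromal list on the linear scale was 110.0 to 110.9 in Cre control and 114.9 to 115.6 in Pdpk1-null CTL, ranges that do not overlap. Of its 6 genes 3 were above background in the first experiment, Col1a2, Pdgfrb and Dcn, and 2 in the second. Col1a1, Col3a1 and Pdgfra were below background in every group. The brightest, Dcn, read 5.07, 5.08 and 5.07 against 5.20, 5.21 and 5.14, higher on every Pdpk1-null array. The summed signal of the epithelial and endothelial list was 1169 to 1528 against 1292 to 1771, ranges that overlap. For 6 myeloid markers it was 238 to 253 against 251 to 308, and for 5 measured B cell markers 125 to 136 against 131 to 140, and none of these genes was called after deletion. The part of the small shifts of these lists in the rise of Wls was not tested. With AktI, Cd68 of the myeloid list fell (log2 difference -1.30, limma adjusted p = 0.00563), and Prf1 of the CTL list fell as well (-2.20, limma adjusted p = 0.000164). After deletion Cd2, a T cell adhesion molecule, rose (0.67, limma adjusted p = 0.0151). It was the only gene called among 8 measured on the T cell and CTL list, whose differences went both ways. They ran from -0.67 to 0.67 with a median of -0.09. The summed signal of that list was 35909 to 37458 in Cre control and 33846 to 36362 in Pdpk1-null CTL, ranges that overlap.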

How the data were processed

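The authors hybridized RNA of 12 CTL cultures to Affymetrix Mouse Genome arrays and deposited log2 signals, which Affymetrix Expression Console 1.1 had computed with the robust multichip average. They were used as deposited. Of 45101 probe sets 64 are controls, 34945 of the rest name 1 gene, 932 several and 9160 none. The platform annotation named the genes, with RefSeq symbols (GRCm38.p6) for 34741 probe sets.

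Each comparison was fitted on its 6 arrays with lmFit and eBayes in limma 3.58.1 (R 4.3.3), adjusted by Benjamini-Hochberg over 45037 probe sets and called at an adjusted p under 0.05 and 1.5-fold. Effects of deletion and AktI were compared in 1 model of the 4 group means on 12 arrays. The script was tested on simulated data. Background is the 95th percentile of 80 olfactory and vomeronasal receptor probe sets. With 3 arrays per group, their number limits precision.

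The members and gene lists were chosen with earlier results of these data known. Named were the members, from each list up to 4 called genes or else the 2 with the largest differences, the neighbours of Wls and the 5 genes most like it. Per the labels AktI was given to part of the cells of each biological replicate, so these numbers pair the arrays. After removal of group means same-numbered arrays had r = 0.0343 to 0.17, and others -0.102 to 0.0383, ranges that overlap.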

Additional observations from a re-analysis of the deposited data

How the results depend on the processing

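None of the 18 probe sets of the 6 genes other than Wls was called under any of the alternatives run. These were a common median for the arrays of an experiment, quantile normalization, limma's trend and robust settings, and removal of dim probe sets. Further ones were no fold minimum or a 2-fold one, a single model of 12 arrays, a replicate block, and omission of each array in turn. The lowest adjusted p was 0.0628 in limma, for Lrp6 after deletion with dim probe sets removed. Without single arrays the difference of Wls on its brightest probe set, 1437434_a_at, ran from 5.88 to 6.40 after deletion and from -0.20 to 0.02 with AktI. Pathway genes called after deletion numbered 1 with a 2-fold minimum or with a gene's probe sets averaged, and 1 to 2 without single arrays, with Mtm1 called each time. With AktI they numbered 0 with a 2-fold minimum, 2 (Lef1 and Frat2) with a common array median, the replicate block, trend and robust settings, dim probe sets removed, a single model or averaged probe sets, 3 (Lef1, Id2 and Tle1) when any of a gene's probe sets may pass, 9 with no fold minimum, and 1 to 3 without single arrays. Besides Frat2 with AktI and the difference of effects for Ctbp2, the replicate block changed no call of a member or pathway gene named here. Without single arrays the adjusted p was 0.0534 to 0.133 for Wnt10b after deletion and 0.00843 to 0.0809 for Sfrp2 with AktI. For Pdpk1 the arrays share only a number (same-numbered r = -0.011 to 0.0496), and the block gave 479 called probe sets there and 905 with AktI. Probe sets called after deletion numbered 459, 835 with no fold minimum, 135 with a 2-fold minimum and 194 to 637 without single arrays. With AktI they numbered 872, 2329, 262 and 752 to 888. Probe sets whose effects differ numbered 178, 74 with a 2-fold minimum and 104 to 220 without single arrays. The cause of these shifts was not tested beyond the settings' own construction. Signals below background limit what could be seen for Porcn, for Wls outside Pdpk1-null CTL, and for single probe sets of Axin2, Gsk3b and Apc.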
